A study of Mus musculus with 15 samples.

Results

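The genes of the Bcl2 family were followed in regulatory T cells (Treg) from spleens of mice with an active Notch1 allele, a deletion of Rbpj, or both. The 9 genes chosen were the survival genes Bcl2, Bcl2l1 and Mcl1, the effector genes Bax and Bak1, and the genes Bcl2l11, Bid, Bbc3 and Pmaip1, whose products carry only the BH3 domain. They were read from transcript clusters, the probe groups with which an array reads 1 transcript, that named exactly 1 of them. Each of 8 genes had 1 such transcript cluster, among 19752 genes read in this way, and Bax was not measured here.

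Treg were sorted from 6-week-old males as CD3, TCRbeta, CD4 and GFP positive cells, with GFP reporting Foxp3. Cells positive for CD8, B220, CD11b, CD11c, Gr1 or the dead-cell dye DAPI were excluded. All groups, controls included, carried Foxp3EGFPCre, in which sequences of Foxp3 drive GFP and the Cre recombinase, so that recombination is directed to cells that express Foxp3. The control group carried no other named allele (4 arrays). N1c additionally carried R26N1c/N1c, an allele for the active intracellular part of Notch1 (4 arrays), and RBPJdel carried RBPJ∆/∆, which removes the DNA-binding partner of active Notch (4 arrays). N1c_RBPJdel carried both (3 arrays). Each array held a pool of several mice (40000 to 50000 cells), so a pool, not a mouse, is the replicate, and p-values measure the spread between pools. A FACSAria was used for the sort of N1c_RBPJdel and a MoFlo for the 3 other groups, so sorter and genotype cannot be told apart in any comparison with N1c_RBPJdel.

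The Bcl2 family decides whether the outer mitochondrial membrane stays intact. BCL-2, BCL-XL (Bcl2l1) and MCL-1 bind and restrain the effectors BAX and BAK, which otherwise open pores that release cytochrome c and start the caspase cascade. BH3-only proteins such as BIM (Bcl2l11), PUMA (Bbc3), NOXA (Pmaip1) and BID tip this balance toward death by occupying the survival proteins or by engaging the effectors. Treg depend on MCL-1, and loss of BIM is known to let Treg accumulate. RNA is only one layer of this control, because MCL-1, BIM and BID are also set by protein turnover, sequestration or cleavage.

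Bcl2 was the 1 member that passed the test in any comparison, and its promoter is shown because the results turn on it. Bcl2l11 is shown beside it because 1 of its windows, the one shown, held a match to a FOXO motif, and FOXO factors are known to drive this gene. Both are the 250 bases before a RefSeq transcript start in GRCm38.p6, 5′ to 3′ on the strand of the gene, with motif matches in capitals. The Bcl2 window is chr1:106714291-106714540 on the minus strand, and the Bcl2l11 window is chr2:128125788-128126037 on the plus strand.
Bcl2: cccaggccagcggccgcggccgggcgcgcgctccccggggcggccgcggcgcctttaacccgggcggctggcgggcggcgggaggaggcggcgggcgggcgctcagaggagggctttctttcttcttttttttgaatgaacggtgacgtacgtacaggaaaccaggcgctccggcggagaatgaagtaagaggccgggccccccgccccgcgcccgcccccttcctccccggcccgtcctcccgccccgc
Bcl2l11: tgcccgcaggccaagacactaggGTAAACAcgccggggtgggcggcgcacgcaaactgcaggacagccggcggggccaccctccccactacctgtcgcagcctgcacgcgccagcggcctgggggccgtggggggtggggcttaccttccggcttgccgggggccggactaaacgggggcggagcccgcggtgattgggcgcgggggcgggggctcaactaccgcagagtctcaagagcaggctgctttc

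The G and C content was 74.8% in the Bcl2 window and 72.0% in the Bcl2l11 window shown, against a median of 52.4% over 32851 mouse windows. Windows of 8 of the 9 members were used, 13 in all, because some genes have several starts. Pmaip1, on chromosome 18, was left out of the search. They were searched on both strands for TGGGAA, the core recognised by RBPJ (TTCCCA on the other strand), which 21.6% of all windows hold. The search also covered TGTTTAC, recognised by FOXO factors (GTAAACA on the other strand, 3.17% of all windows), and TTCNNNGAA, recognised by STAT5 (7.02%). No match of a motif overlapped a match of another. The windows of Bcl2, Bcl2l1, Mcl1, Bcl2l11, Bid, Bbc3 and Bak1 held no TGGGAA, and that of Bax held 1. The FOXO letters stood in the Bcl2l11 window shown, at position -227 from the transcript start, and in 1 of 3 Bbc3 windows, at position -167. The other Bcl2l11 window, chr2:128127325-128127574, did not hold them. No window held the STAT5 letters. A match is a description of the letters in these windows and no evidence of binding.

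As a check of genotype, the Rbpj signal fell from 497 in control to 267 in RBPJdel (log2 difference -0.90 ± 0.12 SE, limma, adjusted p = 0.00213) and to 209 in N1c_RBPJdel. Hes1, a classical target of Notch and RBPJ, rose from 65.6 in control to 626 in N1c, while RBPJdel had 65.2 and N1c_RBPJdel 78.3. Dtx1, another Notch target, rose from 1639 in control to 4537 in N1c (adjusted p = 0.000471). It was at 378 with the Rbpj deletion alone and at 797 with both alleles, so that it was higher with both alleles than with the Rbpj deletion alone (log2 difference 1.08 ± 0.23, adjusted p = 0.0252). The Notch1 transcript cluster read 1227 in control and 1252 in N1c, a difference that did not pass the test. Foxp3 lay between 3543 and 6248 on all arrays and did not pass the test in any of the 6 comparisons. Correlations between arrays ran from 0.974 to 0.997. The N1c_RBPJdel arrays 1 and 3 had a narrower spread of log2 values (interquartile ranges 2.49 and 2.47) than array 2 (2.86) and the arrays of the other groups (2.57 to 2.97), and array 2 held the highest value of its group for 6 of the 8 members and the lowest for the other two, Bcl2 and Mcl1. Some differences of N1c_RBPJdel are therefore also given by array 2 alone. That setting leaves 1 array in the group, so its spread is taken wholly from the other groups and the array is assumed to vary like theirs.

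The first comparison asked how the family differed in Treg with active Notch1. In N1c against control, 3 of the 8 members were lower at an unadjusted p under 0.05. Over all genes, 1352 of 19752 had an unadjusted p up to 0.035 there (limma, either direction). In this comparison 1 of the 8 members passed the test, and it fell, where over all genes 1.65% passed in either direction and 0.714% fell. This member was Bcl2, whose signal was 1.53-fold lower. Bcl2l1, Mcl1 and Bcl2l11 had lower means without passing the test, Bak1 had a higher mean without passing it, and the other BH3-only genes had differences near 0. The median log2 difference over the 8 members was -0.13, against -0.01 over all genes.

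Bcl2 encodes the founding survival protein of the family. Arrays are given here in the order of their label numbers, which are 2, 3, 4 and 5 in control, 1, 2, 4 and 5 in N1c, 1 to 4 in RBPJdel and 1 to 3 in N1c_RBPJdel. The control arrays of Bcl2 read 2585, 2756, 2690 and 2738, and its N1c arrays read 1634, 1966, 1810 and 1648. Every N1c array lay below every control array, and the control arrays lay close together. Over all genes, arrays of N1c and control did not overlap in 5.73%, in either direction. On the log2 scale the difference was -0.61 ± 0.11 (SE; 95% interval -0.84 to -0.39; limma, adjusted p = 0.00309, 4 arrays against 4). It stayed past the threshold in 25 of 25 alternative settings, with adjusted p from 0.000325 to 0.0324.

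With the Rbpj deletion alone, Bcl2 did not pass the test. The RBPJdel arrays read 2663, 2731, 2483 and 2175. Arrays 1 and 2 lay within the range of control and arrays 3 and 4 below it, so the groups overlapped. The difference from control was -0.10 ± 0.11 (95% interval -0.33 to 0.12; adjusted p = 0.899).

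With both alleles Bcl2 was again low. The N1c_RBPJdel arrays read 1758, 1584 and 2142. All 3 lay below all control and all RBPJdel arrays and overlapped the N1c arrays. Over all genes, N1c_RBPJdel arrays did not overlap those of control in 18.7% and those of RBPJdel in 15.8%, in either direction. Against control the signal fell by 0.57 ± 0.11 on the log2 scale, which is 1.48-fold (adjusted p = 0.00823). This call stayed in 24 of 24 alternative settings, and by array 2 alone the difference was -0.77.

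The order of the Bcl2 levels was thus control (geometric mean 2691), RBPJdel (2503), N1c_RBPJdel (1813) and N1c (1759). The only neighbours in this order whose arrays did not overlap were RBPJdel and N1c_RBPJdel. Between N1c_RBPJdel and N1c the difference was 0.04 ± 0.11 (95% interval -0.20 to 0.28; adjusted p = 0.846). The interaction, which is the N1c difference with the Rbpj deletion minus that without it, was 0.15 ± 0.16 for Bcl2 (95% interval -0.18 to 0.48; adjusted p = 0.738). The interaction was -2.99 for Hes1 (adjusted p = 0.000462) and -0.39 ± 0.31 for Dtx1 (adjusted p = 0.636), so the checked Notch targets differed from each other in it. Both were lower in N1c_RBPJdel than in N1c, Hes1 at -3.00 and Dtx1 at -2.51 (limma, adjusted p = 1.66e-06 and 2e-06). With the Rbpj deletion alone Dtx1 fell against control (-2.12 ± 0.21, adjusted p = 0.000116), whereas Hes1 did not (-0.01 ± 0.25, adjusted p = 0.997).

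Against RBPJdel, the background that it shares, N1c_RBPJdel had Bcl2 lower by 0.47 ± 0.11 on the log2 scale, or 1.38-fold (adjusted p = 0.0424). This call was close to the threshold and was lost in 12 of 24 alternative settings. The adjusted p was 0.0587, 0.0567 and 0.0568 without control array 2, 3 or 4, 0.055 without N1c array 4, and 0.106, 0.113 and 0.099 without RBPJdel array 1, 2 or 3. It was 0.134 without N1c_RBPJdel array 1 and 0.0612 without array 2. The direction was the same in all 24 settings, with log2 differences from -0.66 to -0.37, the first of these by array 2 of N1c_RBPJdel alone.

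**Figure D1:**
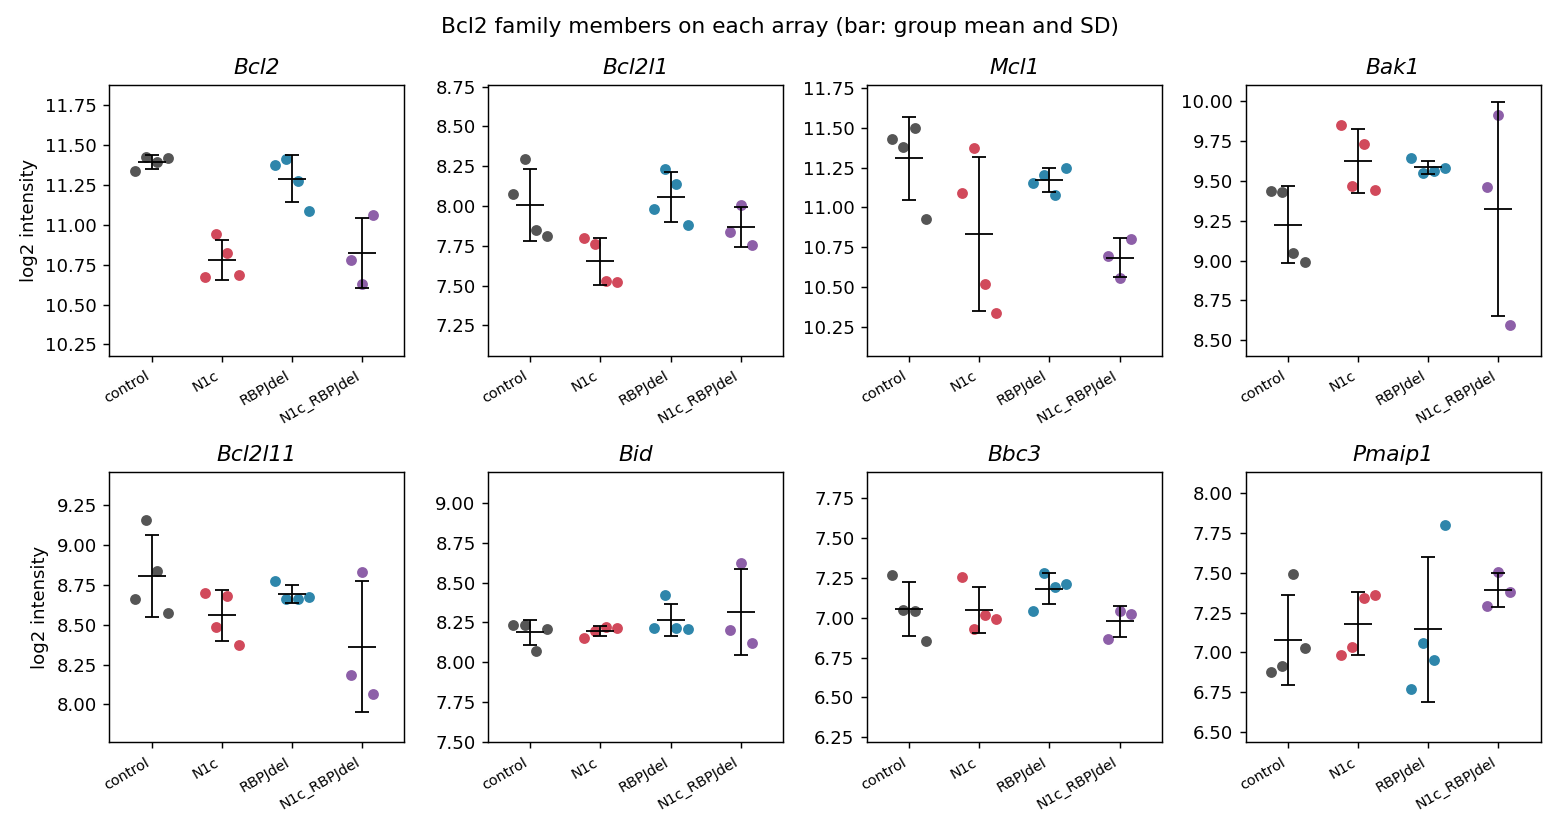
Signal of the 8 measured members (log2 intensity, vertical axes of equal span) on every array of the 4 groups (points), with the mean and SD of each group (bars). Every N1c and N1c_RBPJdel array lies below every control array for Bcl2, while the N1c arrays of Mcl1 spread from 1296 to 2651 on the linear scale and those of Bid from 285 to 298. Over all genes, arrays did not overlap those of control in 5.73% for N1c and 18.7% for N1c_RBPJdel, in either direction.

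The other survival genes had lower means in N1c but wider spread. For Bcl2l1, which encodes BCL-XL, the control arrays read 270, 314, 231 and 224 and the N1c arrays 223, 217, 184 and 184. All N1c arrays lay below all control arrays, by a small margin. The difference of -0.35 ± 0.12 (95% interval -0.61 to -0.10) had an unadjusted p of 0.00864 and did not pass over all genes (limma, adjusted p = 0.237), except with array weights (adjusted p = 0.0357). Arrays of N1c and control failed to overlap for 5.73% of all genes. The RBPJdel arrays of Bcl2l1 read 252, 301, 282 and 235 and the N1c_RBPJdel arrays 229, 257 and 216, both within or close to the range of control. In order of geometric means Bcl2l1 ran RBPJdel (266), control (257), N1c_RBPJdel (233) and N1c (201), and arrays of all neighbours in this order overlapped. Between N1c_RBPJdel and N1c the difference was 0.21 ± 0.13 (95% interval -0.06 to 0.49; adjusted p = 0.31), an interval that holds both 0 and the size of the N1c fall.

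Mcl1 encodes a short-lived survival protein that T cells need throughout life. Its control arrays read 2756, 2665, 2896 and 1948 and its N1c arrays 2186, 2651, 1467 and 1296. N1c arrays 4 and 5 were low and array 2 lay within control, so the groups overlapped. The difference was -0.48 ± 0.18 (adjusted p = 0.346).

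Mcl1 in RBPJdel read 2278, 2359, 2161 and 2434, within the range of control. In N1c_RBPJdel it read 1657, 1509 and 1785, below every control and every RBPJdel array. Over all genes, arrays did not overlap in 18.7% for N1c_RBPJdel against control and in 15.8% against RBPJdel, in either direction. The difference of Mcl1 from control, -0.62 ± 0.19 (95% interval -1.03 to -0.21; 1.54-fold lower), did not pass the threshold (limma, adjusted p = 0.0537). It passed in 6 alternative settings, among them without control array 5 (-0.75, adjusted p = 0.0233), without N1c array 2 (adjusted p = 0.0298) and without N1c array 5 (adjusted p = 0.0296). Against RBPJdel the difference was -0.49 ± 0.19 (adjusted p = 0.162). The order of Mcl1 was control (2537), RBPJdel (2306), N1c (1822) and N1c_RBPJdel (1646), and neighbouring groups overlapped. Its interaction was -0.01 ± 0.27, with a wide interval of -0.57 to 0.55.

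Among the death genes, Bak1, which encodes a pore-forming effector, had higher means with either allele alone. Its control arrays read 693, 689, 528 and 508, its N1c arrays 924, 707, 849 and 696, and its RBPJdel arrays 800, 751, 755 and 767. Each of these groups lay above all control arrays, as groups not overlapping did for 5.73% of all genes in N1c and 5.89% in RBPJdel, in either direction. The differences of 0.40 ± 0.20 in N1c (adjusted p = 0.661) and 0.36 ± 0.20 in RBPJdel (adjusted p = 0.793) did not pass the test. In N1c_RBPJdel, Bak1 read 706, 963 and 386, the widest spread of any member in any group (SD 0.67 on the log2 scale), and its interaction of -0.66 ± 0.29 did not pass either (adjusted p = 0.353). The order of Bak1 was N1c (788), RBPJdel (768), N1c_RBPJdel (640) and control (598), and neighbouring groups overlapped. The RBPJdel arrays lay closest together of the 4 groups (SD 0.04).

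Bcl2l11 encodes BIM, the main BH3-only protein that limits Treg numbers. Its control arrays read 405, 571, 457 and 381, its N1c arrays 416, 358, 410 and 331, and its RBPJdel arrays 438, 405, 405 and 409. All 3 groups overlapped. Its N1c difference was -0.25 ± 0.15 (adjusted p = 0.847).

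In N1c_RBPJdel, Bcl2l11 read 291, 456 and 268. Arrays 1 and 3 lay below every array of every other group and array 2 lay within control. The difference from control was -0.44 ± 0.16 (adjusted p = 0.0965). Without array 2 it was -0.68 (adjusted p = 0.00788) and against RBPJdel -0.57 (adjusted p = 0.0236), whereas by array 2 alone the difference from control was 0.03, a value of 1 array.

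The other BH3-only genes had small differences. Bid, whose protein is cleaved by caspase-8 to link death receptors to mitochondria, read 269 to 301 in control, 285 to 298 in N1c, 296 to 342 in RBPJdel and 278 to 394 in N1c_RBPJdel. Its N1c difference was 0.01 ± 0.10 (95% interval -0.21 to 0.23), an interval that does not reach the -0.61 of Bcl2. Bbc3, a p53 and FOXO target that encodes PUMA, read 116 to 154, 122 to 153, 132 to 155 and 117 to 132 in the same order, with an N1c difference of -0.01 ± 0.10 (95% interval -0.22 to 0.21). Its largest difference was that of N1c_RBPJdel from RBPJdel, -0.20 ± 0.11 (adjusted p = 0.304), where the groups met at a value of 132 that RBPJdel array 1, N1c_RBPJdel array 2 and control array 4 share exactly in the deposited values.

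Pmaip1, which encodes the MCL-1 antagonist NOXA, read 117, 121, 180 and 131 in control and 127, 131, 162 and 164 in N1c. In RBPJdel it read 109, 133, 124 and 223, with array 4 high, and in N1c_RBPJdel 157, 182 and 167. All groups overlapped, and the largest difference, N1c_RBPJdel against control, was 0.32 ± 0.20 (adjusted p = 0.327).

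**Figure D2:**
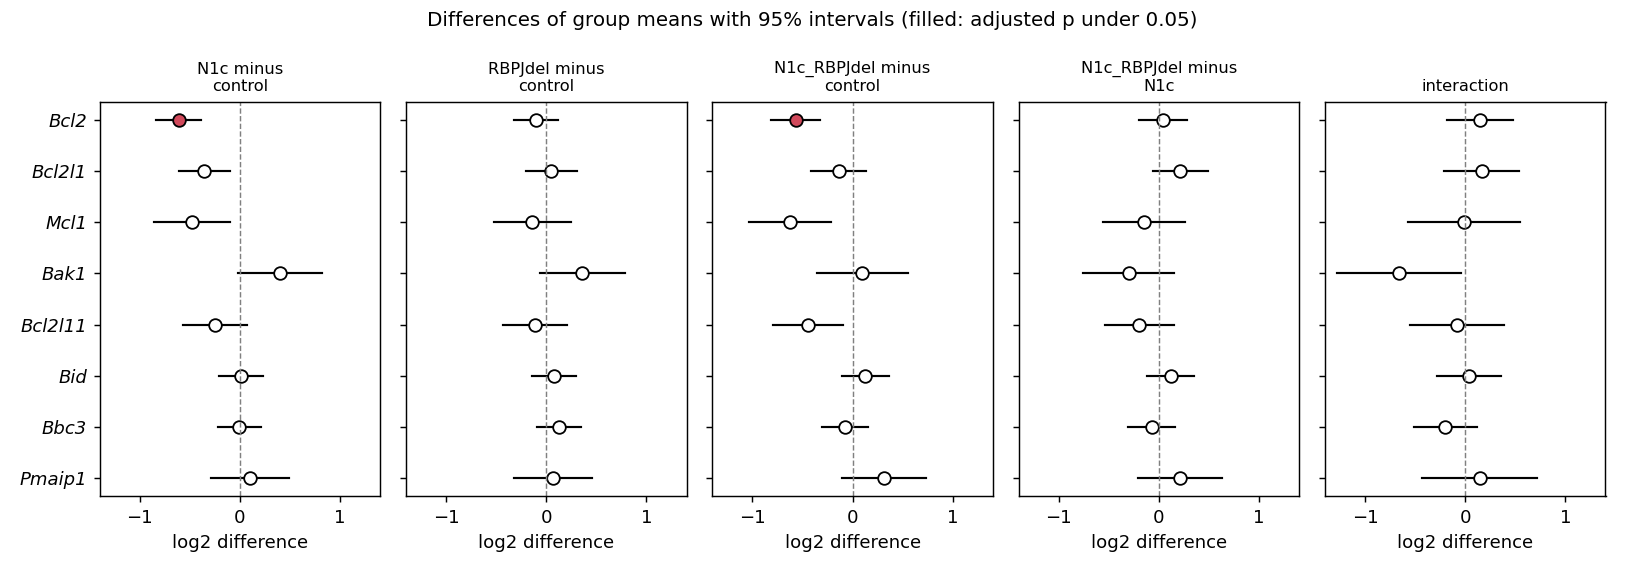
Differences of group means (log2 intensity, horizontal axis) for the 8 measured members in 5 comparisons, with 95% intervals from limma; filled points passed an adjusted p of 0.05. Bcl2 is filled in N1c minus control (-0.61) and in N1c_RBPJdel minus control (-0.57), and no point is filled in RBPJdel minus control, N1c_RBPJdel minus N1c or the interaction.

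Across comparisons the count of members that passed the test was low. In RBPJdel against control it was 0 of 8 by limma, where 0.111% of all genes passed. At an unadjusted p under 0.05 it was also 0. Over all genes, 487 had an unadjusted p up to 0.0149 there (limma, either direction). In N1c_RBPJdel against control it was 1 of 8, Bcl2, which fell, where 8.9% of all genes passed and 5.12% fell. At an unadjusted p under 0.05, 3 members were lower there (Bcl2, Mcl1 and Bcl2l11). Over all genes, 4847 of 19752 had an unadjusted p up to 0.042 there (limma, either direction). In N1c_RBPJdel against RBPJdel the count was 1 of 8, again Bcl2, where 2.29% of all genes passed and 0.967% fell. At an unadjusted p under 0.05, 2 members were lower there (Bcl2 and Mcl1). Over all genes, 3852 had an unadjusted p up to 0.0427 there (limma, either direction). In N1c_RBPJdel against N1c the count was 0 of 8 by limma, where 9.23% of all genes passed. At an unadjusted p under 0.05 it was also 0. Over all genes, 4611 had an unadjusted p up to 0.0367 there (limma, either direction). In the interaction it was 0 of 8 by limma, where 0.84% of all genes passed. At an unadjusted p under 0.05, 1 member stood there, Bak1. Over all genes, 2108 had an unadjusted p up to 0.0377 there (limma, either direction). The member medians were 0.06, -0.11, -0.23, -0.01 and 0.02 in this order, beside 0.03, 0.02, -0.01, 0.02 and -0.01 over all genes.

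**Figure D3:**
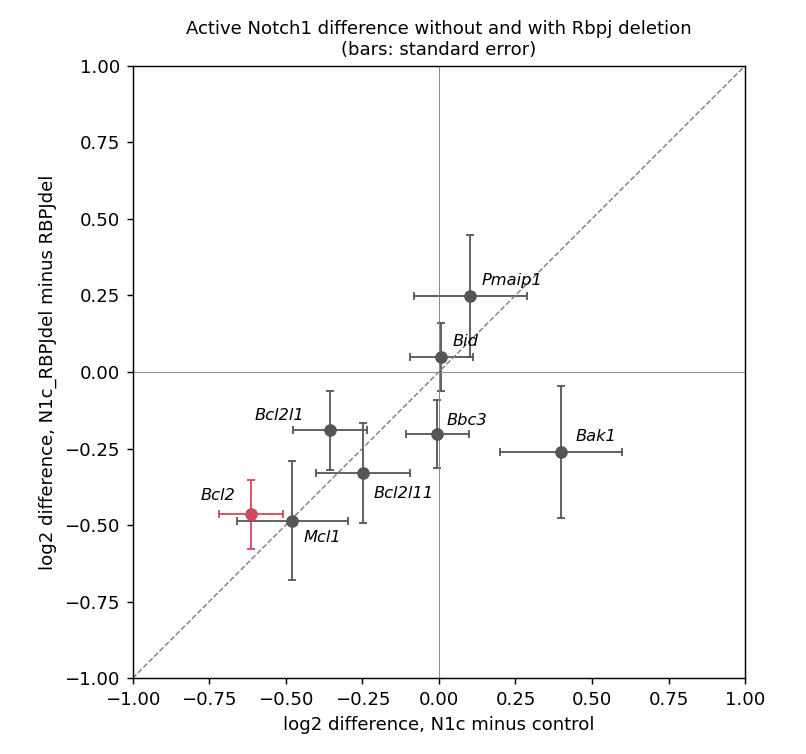
Difference attached to active Notch1 without the Rbpj deletion (N1c minus control, horizontal axis, log2) and with it (N1c_RBPJdel minus RBPJdel, vertical axis, log2) for the 8 measured members, with standard errors as bars; no array enters both axes. Bcl2 (red) lies at -0.61 and -0.47 and Mcl1 at -0.48 and -0.49, near the dashed line of equal differences, and Bak1 at 0.40 and -0.26 lies farthest from it.

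Correlations among the members over the 15 arrays differed from pair to pair. Bcl2 correlated with Mcl1 at r = 0.69 and with Bcl2l1 at r = 0.61, but with the group means removed these were 0.26 and 0.03. Within groups the closest pair was Bcl2l11 and Bak1 (r = 0.76), and Bcl2 and Bak1 ran opposite (r = -0.66). These are descriptions over arrays that share groups and normalization, and for Bcl2l11, Bak1 and Bid they draw on the high N1c_RBPJdel array 2. The genes most like Bcl2 over the 15 arrays were Stk38 (r = 0.94), Tut4 (0.91), Abcg3 (0.88) and Macf1 (0.88), and the most opposite were Rras (-0.94) and Cib1 (-0.91). With group means removed these were 0.64, 0.65, 0.51, 0.84, -0.77 and -0.70.

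Of the rest of the Bcl2 family, 14 of 17 listed genes were measured. Over all genes, 1.65% passed in N1c against control, in either direction. In N1c against control 1 rose and 1 fell: Bcl2l14, a member with a disputed role in cell death, rose from 70.7 to 109 (log2 difference 0.63, adjusted p = 0.0108; 0.0502 without control array 4), and Bnip3, which encodes a mitochondrial protein of hypoxia and mitophagy, fell from 124 to 70.8 (-0.81, adjusted p = 0.0133; 0.0562 without control array 3 and 0.0602 with only these groups in the fit). Array medians were 107.1 to 117.2, so Bcl2l14 in control and Bnip3 in N1c read below the median feature of an array. In contrast to Bcl2, Bnip3 was at 166 in N1c_RBPJdel, higher than in N1c by 1.23 (adjusted p = 0.000451). Its interaction was 1.14 (adjusted p = 0.0354), which was lost in 9 of 23 alternative settings, with adjusted p up to 0.0948.

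The survival gene Bcl2a1, also called A1, is present in mice as several near-identical copies, and 3 transcript clusters named all of Bcl2a1a, Bcl2a1b, Bcl2a1c and Bcl2a1d together. They were outside the comparisons above and were fitted with all 24922 features as a setting added after the data were seen. They ran opposite to Bcl2: means of 502, 510 and 535 in control stood beside 740, 773 and 797 in N1c, 513, 520 and 545 in RBPJdel and 756, 740 and 785 in N1c_RBPJdel. All N1c and all N1c_RBPJdel arrays lay above all control arrays on each of the 3. Over all genes, arrays did not overlap in 5.73% for N1c against control and in 18.7% for N1c_RBPJdel against control, in either direction. The log2 differences in N1c were 0.56, 0.60 and 0.57 (limma over all features, adjusted p = 0.0536, 0.0399 and 0.0384; 1.26% of features passed), and in N1c_RBPJdel 0.59, 0.54 and 0.55 (adjusted p = 0.0228, 0.0359 and 0.0274; 8.56% passed). The 3 clusters are not independent, because near-identical copies share probes, and within them the copies cannot be told apart. A separate cluster of Bcl2a1c alone, given in the last section, did not pass the threshold against control in N1c or in N1c_RBPJdel.

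Downstream of the mitochondria, 15 of 17 listed genes of cytochrome c release and caspase activation were measured. None passed in N1c against control, where 1.65% of all genes passed (limma). Among them 1 had an unadjusted p under 0.05, as 1352 of 19752 genes had one up to 0.035. Over all genes 8.9% passed in N1c_RBPJdel against control, 9.23% against N1c and 2.29% against RBPJdel, in either direction. In N1c_RBPJdel, Apaf1, the scaffold of the apoptosome, fell against control (-0.51, adjusted p = 0.0096) and against N1c (-0.47, adjusted p = 0.00985). Cycs, which encodes cytochrome c, passed as higher against all 3 groups (0.52, 0.44 and 0.63 against control, N1c and RBPJdel), but with the mean of its features in place of the brightest these were 0.02, -0.17 and 0.17, none of them past the threshold.

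Of 5 inhibitors of apoptosis proteins, which block caspases, none passed in N1c against control, where 1.65% of all genes passed (limma). Among them 1 had an unadjusted p under 0.05, as 1352 of 19752 genes had one up to 0.035. Birc6 fell in N1c_RBPJdel against control, from 2383 to 1446 (-0.72, adjusted p = 0.00506), in 24 of 24 alternative settings. Xiap fell there too (-0.81, adjusted p = 0.0352), a call lost in 9 of 24. These 2 of the 5 stand beside 8.9% of all genes that passed there and 5.12% that fell.

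On the death receptor route, which reaches the members through BID, 10 of 11 listed genes were measured. In N1c against control 1 of the 10 rose and 1 fell, where 1.65% of all genes passed. Over all genes 9.23% passed in N1c_RBPJdel against N1c and 0.84% in the interaction. Fasl, the ligand of FAS, rose in N1c from 91.1 to 261 (log2 difference 1.52, adjusted p = 1.38e-05) and was at 97.1 in N1c_RBPJdel, a log2 difference from N1c of -1.43 (adjusted p = 5.04e-05). Its interaction was -1.25 (adjusted p = 0.0122), and all 3 calls stayed in every alternative setting run. Tnfsf10, which encodes the ligand TRAIL, fell in N1c (-0.68, adjusted p = 0.0177, lost in 4 of 25) and was higher in N1c_RBPJdel than in N1c (0.95, adjusted p = 0.00123). Without control array 2 or 3 or N1c array 5 the adjusted p of that fall was 0.0841, 0.0837 and 0.0711.

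Cytokines that signal through the common gamma chain sustain Bcl2 and Mcl1 in lymphocytes, and 13 of 15 listed genes of this pathway were measured. Il7r, the IL-7 receptor alpha chain, fell in N1c from 2783 to 1904 (log2 difference -0.55, adjusted p = 0.0105). In N1c_RBPJdel it was at 3556. It was higher there than in N1c by 0.90 (adjusted p = 0.00013, in 24 of 24 alternative settings), and its interaction was 0.71 (adjusted p = 0.0459, lost in 15 of 23). The fall in N1c had an adjusted p of 0.0539 without control array 3 and 0.0807 without control and N1c arrays 5 together. With the replicate number as a block in N1c and control alone, whose arrays count as paired by the rule given below, the fall was -0.48 (adjusted p = 0.0654).

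Il4ra, the IL-4 receptor alpha chain, was low in the same groups as Bcl2. It fell in N1c from 1302 to 872 (-0.58, adjusted p = 0.0152; 0.0544 to 0.0697 without control array 2, 3 or 4 or N1c array 5). In N1c_RBPJdel it was at 939, lower than control (-0.47, adjusted p = 0.0331, lost in 8 of 24) and than RBPJdel (-0.61, adjusted p = 0.0265, lost in 6 of 24). Stat5b, a transcription factor of this pathway, fell in N1c_RBPJdel against control (-0.47, adjusted p = 0.0287) and N1c (-0.44, adjusted p = 0.0362), calls lost in 7 and 6 of 24.

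**Figure D4:**
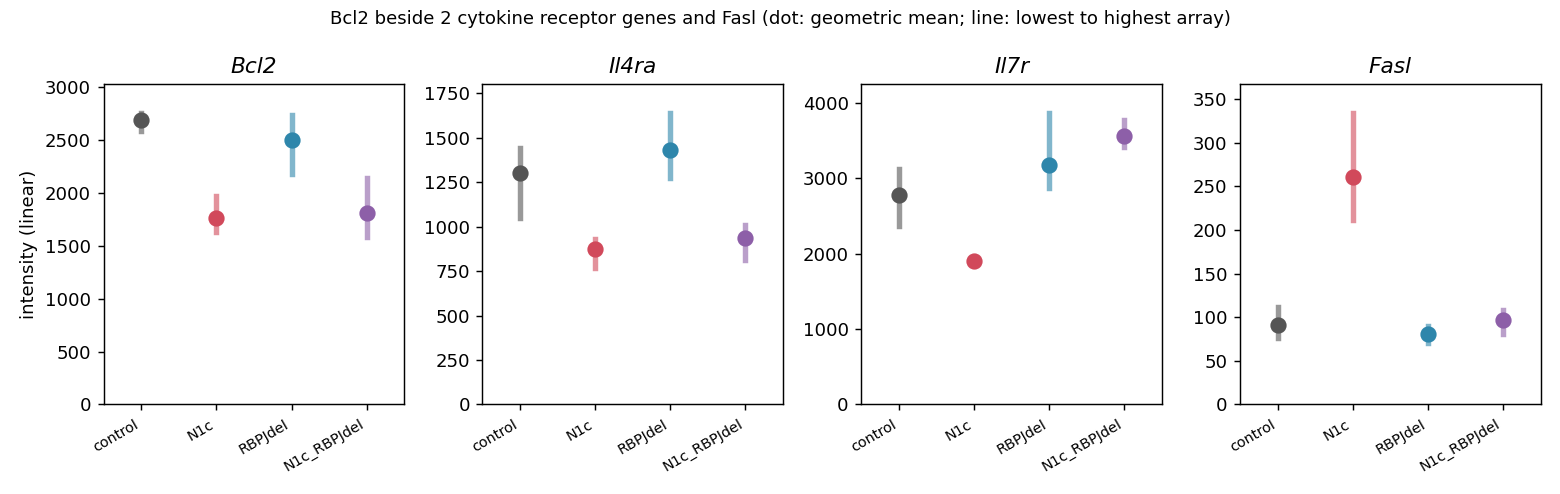
Linear intensity of Bcl2, the receptor genes Il4ra and Il7r, and Fasl in the 4 groups; dots are geometric means and lines run from the lowest to the highest array (4 arrays per group, 3 in N1c_RBPJdel; axes start at 0). Bcl2 and Il4ra are low in both groups with active Notch1, whereas Il7r (1904) is low and Fasl (261) is high in N1c and not in N1c_RBPJdel.

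Of the transcription factors known to set BH3-only genes, 11 of 13 were measured. Over all genes, 8.9% passed in N1c_RBPJdel against control and 5.12% fell, and 1.65% passed in N1c against control and 0.714% fell. In N1c against control 1 fell, Myc (-0.54, adjusted p = 0.0496), a call lost in 13 of 25 alternative settings. Foxo1, a driver of Bcl2l11, Bbc3 and Il7r in T cells, fell in N1c_RBPJdel from 1981 to 1294 (-0.61, adjusted p = 0.00529), and by array 2 alone, with the spread taken from the other groups, the difference was -0.42 (adjusted p = 0.125).

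Of 13 listed genes that set the turnover or sequestration of MCL-1 and BIM, 10 were measured. None passed in N1c against control, where 1.65% of all genes passed (limma). Among them 1 had an unadjusted p under 0.05, as 1352 of 19752 genes had one up to 0.035. In N1c_RBPJdel against control 3 fell: Huwe1, a ubiquitin ligase of MCL-1 (-0.69, adjusted p = 0.00361, in 24 of 24 alternative settings), Usp9x, its deubiquitinase (-0.67, adjusted p = 0.00843; 0.0506 without N1c_RBPJdel array 1), and Gsk3b, a kinase that marks MCL-1 for degradation (-0.51, adjusted p = 0.00911; 0.122 by array 2 alone, with the spread taken from the other groups). Genes of opposite effect on MCL-1 thus fell in the same group. Over all genes 8.9% passed against control and 5.12% fell. Against N1c 5 of the 10 fell, where 9.23% of all genes passed in either direction, and against RBPJdel 2 of the 10 fell, where 2.29% passed and 0.967% fell. Of 13 measured p53 response genes none passed in any of the 6 comparisons (limma), in which 0.111% to 9.23% of all genes passed. At an unadjusted p under 0.05 there were 0 to 3.

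Markers of other cells were compared because Bcl2 differs between cell types, and in sorted bulk cells fewer cells of a type and less RNA per cell cannot be told apart. The summed signal of the 5 Treg markers was 17790 to 19460 in control, 16690 to 18270 in N1c, 15370 to 19970 in RBPJdel and 16170 to 17650 in N1c_RBPJdel. The 4 NK cell markers summed to 297 to 703 in control, 872 to 1292 in N1c, 519 to 766 in RBPJdel and 732 to 1489 in N1c_RBPJdel. In N1c against control 1 of the 4 passed the test, Nkg7, a granule gene of cytotoxic cells, at 432, 951, 599 and 873 in the same order, while Ncr1, Klrb1c and Klrd1, which define NK cells, stayed between 15.2 and 43.9 on all arrays. In N1c_RBPJdel the 5 neutrophil markers summed to 336 to 413 against 234 to 301 on all other arrays, with 2 of the 5 past the test against control. The 2 measured erythroid markers summed to 216 to 935 against 113 to 142, with 1 past it, Car1. Of 4 measured B cell markers 2 passed in N1c_RBPJdel against control, a comparison in which 8.9% of all genes passed. The B cell markers summed to 526 to 855 in N1c_RBPJdel and 552 to 660 in RBPJdel. Control had 471 to 546 and N1c 426.8 to 478.5, so the sums of N1c_RBPJdel overlapped those of control and RBPJdel. Cd79b, the brightest of the 4, overlapped control too (324 to 656 against 322 to 415). Cd79a was 50.1 to 69.9 in N1c_RBPJdel and at most 36.3, 34.5 and 39.3 in control, N1c and RBPJdel. Ms4a1 was 44.2 to 84.9 in N1c_RBPJdel and at most 35.8, 31.4 and 34.0 in the others. Pax5 was 86.0 to 108, above control (at most 83.1) but overlapping RBPJdel (at most 89.5). Arrays of N1c_RBPJdel and control did not overlap in 18.7% of all genes. The part of these signals in the Bcl2 differences was not tested.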

How the data were processed

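RNA of 15 pools of sorted splenic Treg was measured on Affymetrix Mouse Gene 1.0 ST arrays. The authors deposited 1 intensity per transcript cluster and array, on a linear scale. Per the submitters' processing notes these are RMA values from Affymetrix Power Tools, and their versions are not stated there. The deposited intensities were converted to log2. RMA sets each array to a shared distribution of probe signals, so values are relative within the series, and levels are not compared between genes. Of 24922 features, 21425 named 1 gene, and the brightest of each gene gave 19752 genes, with no filter on dim genes. Array medians were 107.1 to 117.2, and the number of arrays limits the precision.

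Groups were compared with limma 3.58.1 (R 4.3.3), fitting the 4 group means to the 15 arrays together, with 11 residual and 6.15 prior degrees of freedom. Each of the 6 comparisons gives two-sided p-values, adjusted over its 19752 genes by Benjamini-Hochberg and called under 0.05. The procedure was run on simulated data whose deviations were independent between genes and arrays. It therefore cannot show how variation shared between arrays bears on the calls. Values of a group are geometric means. The members and the 8 gene lists were chosen with earlier results of these data known. The rule for named genes took the members in every comparison, from each list and comparison up to 3 genes past the threshold by smallest p, of which the text gives a part, and for Bcl2 the 4 genes of highest and 2 of lowest correlation, with predicted genes, small RNAs and genes of antigen, odour and pheromone receptors skipped. Notch1, Rbpj, Foxp3, Hes1 and Dtx1 serve as checks, and the Bcl2a1 clusters were chosen after their values were seen. Promoter sequences come from RefSeq. Deviations of arrays with the same number correlated at 0.417, 0.341 and 0.497 for N1c and control, which counts as paired (each above 0.1). Arrays of unlike number were not compared in this way, so the rule cannot tell pairing from other shared variation. For the other pairs of groups they ran from -0.12 to 0.457 over 13 pairs, and each of these pairs of groups held at least 1 value under 0.1, so they do not count as paired.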

Additional observations from a re-analysis of the deposited data

Results flagged for a closer look

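In groups of 4 arrays, 3 of the 24 combinations of member and group held an array that stood apart from the others of its group by Dixon's criterion, which chance gives in about 1 in 20 groups. For Bcl2l11, RBPJdel array 1 read 438.2 and the nearest other array 408.56. For Bid, control array 4 read 269.21 (nearest 296.3) and RBPJdel array 2 read 342.2 (nearest 297.75). None of these concerned Bcl2, and in the deposited values 3 arrays of Bcl2l11, 3 of Bbc3 and 2 of Bid share an identical value with another array, as 36.5% of features naming 1 gene do somewhere.

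Apart from a cluster of Bcl2a1c alone, given below, the Bcl2a1 signal lies in transcript clusters that name several genes and so entered no comparison of the members. Cluster 10587683 read 739.51 in N1c and 755.87 in N1c_RBPJdel against 502.1 in control, cluster 10587690 read 773.34 and 740.27 against 510.13, and cluster 10595633 read 796.69 and 784.54 against 535.42. In RBPJdel they read 513, 520 and 545.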

How the results depend on the processing

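The fall of Bcl2 in N1c and in N1c_RBPJdel against control stayed past the threshold in every setting run, 25 and 24 of them. The count of members called in N1c against control was 2 with array weights, the second being Bcl2l1. In N1c_RBPJdel against control it was 2 with brighter genes only, 2 with array weights and 1 to 2 when 1 array was left out. In N1c_RBPJdel against RBPJdel it was 0 with quantile normalization, 0 with only the groups compared, 0 with array weights and 0 to 1 when 1 array was left out. The causes were not tested.

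With the replicate number as a block over all groups, which also ties arrays that the pairing check did not pair, the counts were 3 in N1c_RBPJdel against control, 1 against N1c and 3 against RBPJdel. The members added were Mcl1 (-0.82 against control and -0.53 against RBPJdel) and Pmaip1 (0.57, 0.44 and 0.40). With the block in N1c and control alone, Bcl2 was at -0.57 (adjusted p = 0.0277), 1 member was called, and of the list genes called in N1c the block ended the call of Il7r.

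Log2 differences that turned sign were all of members or settings without a call, except Cycs against N1c (-0.17 with the mean of its features). With the block, Bcl2 in N1c_RBPJdel against N1c was -0.017, Bcl2l1 in RBPJdel -0.011, Bak1 in N1c_RBPJdel against control -0.026 and Bbc3 in N1c 0.002. With array weights Bcl2l1 in RBPJdel was -0.04, Bak1 in N1c_RBPJdel against control -0.094, Pmaip1 in RBPJdel -0.016 and Bid in N1c -0.014. With quantile normalization the Mcl1 interaction was 0.10. By N1c_RBPJdel array 2 alone, a setting added after the data were seen, Bcl2 was -0.15 against N1c and -0.047 in the interaction, Bcl2l11 was 0.027, 0.28 and 0.14 against control, N1c and RBPJdel and 0.39 in the interaction, and Bak1 was 0.29 against N1c and 0.33 against RBPJdel.

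Leaving out 1 array gave these ranges that cross 0. In N1c against control, Bbc3 ran from -0.075 to 0.066 and Bid from -0.030 to 0.023. In RBPJdel against control, Bcl2l1 ran from -0.016 to 0.15, Bcl2l11 from -0.19 to 0.004 and Pmaip1 from -0.15 to 0.21. In N1c_RBPJdel, Bak1 ran from -0.20 to 0.46 against control, -0.59 to 0.064 against N1c and -0.56 to 0.10 against RBPJdel, and Bid from -0.026 to 0.22, -0.034 to 0.22 and -0.11 to 0.15. Against N1c, Bcl2 ran from -0.076 to 0.14 and Mcl1 from -0.31 to 0.035. In the interaction, Bcl2l11 ran from -0.32 to 0.065, Mcl1 from -0.17 to 0.17 and Bid from -0.11 to 0.14.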

Other observations

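Bcl2a1c also had a transcript cluster of its own, a gene chosen here after its values were seen. Its geometric mean was 236 in control and 343 in N1c, against 252 in RBPJdel and 303 in N1c_RBPJdel. The log2 difference in N1c was 0.54 ± 0.15 (SE; limma, adjusted p = 0.091) and in N1c_RBPJdel 0.36 ± 0.16 (adjusted p = 0.16), neither past the threshold.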
